A study of Mus musculus with 8 samples.

Results

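Protein tyrosine phosphatases were taken as the genes whose name on the array begins with Ptpr (receptor type), Ptpn (non-receptor type) or Ptp4a (the PRL phosphatases). The names matched 92 of 41174 probes and 41 genes: 21 receptor-type genes, 17 non-receptor genes, 2 PRL genes and Ptprcap, which encodes a membrane protein associated with CD45 and is no phosphatase. A probe entered the test when it was well above background on all 4 arrays in starved cells, in unstarved cells or in both, and a gene was represented by its brightest such probe. This left 31 of the 41 genes, with 57 tested probes, among 16068 genes in all.

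Protein tyrosine phosphatases remove the phosphate that tyrosine kinases add to proteins, and so end or redirect signals from growth factor receptors, Src-family kinases and cell contacts. Receptor types cross the plasma membrane, carry adhesion-like extracellular domains and often sit at cell-cell junctions, where cadherins and catenins are among their substrates. Non-receptor types lie in the cytoplasm and are directed to their targets by SH2, FERM, PDZ, proline-rich or lipid-binding regions. In epithelia both kinds act on junctions, on focal adhesions and on the receptors for epidermal growth factor and insulin.

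The cells were IMCD3, a mouse kidney cell line derived from inner medullary collecting duct. Starved cells were kept for 48 h in medium without fetal calf serum, a treatment used to make them grow cilia. Unstarved cells had 10% serum, were replated at 1:10 on the previous day and had not reached confluence, so the groups differ in both serum and density. There are 8 samples, 4 starved and 4 unstarved, hybridised as starved and unstarved pairs on 4 Agilent 2-colour arrays, which the titles assign to 2 replicates called biological in the series text. Arrays 1 and 3 are those of replicate 1, with starved RNA in Cy5, and arrays 2 and 4 those of replicate 2, with starved RNA in Cy3, so by the labels replicate and dye orientation cannot be told apart. Both groups come from the same line. RNA came from whole dishes, so a lower level in fewer cells and a lower level in every cell cannot be told apart.

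Ratios are on the log2 scale, starved over unstarved, with the moderated standard error (SE) of 2 replicates and limma's adjusted p-value over all 16068 genes. A gene is said to have risen or fallen when that adjusted p is under 0.05. Levels are loess-normalized single-channel intensities that include an offset of 50, which pulls the ratios of dim probes towards 0, and are listed for arrays 1, 3, 2 and 4 in that order. No spot was saturated (0 on the 4 arrays). Across genes the correlation was 0.991 between arrays of one replicate and 0.824 to 0.830 between replicates. Of 20 markers of collecting duct epithelium 18 were tested, with a median ratio of -0.02. Of these 8 rose, led by Cldn8 (4.49), 2 fell, Krt7 (-1.07) and Krt8 (-0.64), and 8 did not pass. Elf5 and Scnn1b were never above background. The summed level of the list was lower in starved cells, at 619195 to 690888, against 756968 to 805862 in unstarved cells. Of 9 fibroblast markers 6 were never above background, and Postn (-1.03) and Col1a1 (-1.01) fell among the 3 tested. The part of these markers in the phosphatase results was not tested.

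Starved cells gave less signal for Ptpn22, Ptprn and Ptprk and more for Ptprm, Ptpn18, Ptprf, Ptprs and the only detected Ptprz1 probe. Whether that probe reports Ptprz1 transcript was not tested, and Ptprf, Ptprs and Ptprz1 changed sign with median centring in place of loess. With that centring Ptpn22 alone among the members kept its call. The second tested Ptprs probe had -0.00. Ptprc and Ptprb also passed as lower, but entered the test only through unstarved cells and were well above background on 2 and 1 of 4 arrays in starved cells. Thus 5 tested members rose, 5 fell and 21 did not pass. Across all genes 31.4% passed, 18.1% higher and 13.4% lower, so 10 of 31 members is a share near the background. Ptpn22 alone among the members differed 2-fold or more in each replicate, as did 3.55% of all genes. In the plot of ratios by array, the receptor types spread to either side of 0, while most non-receptor types other than Ptpn22 lie closer to it.

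**Figure D1:**
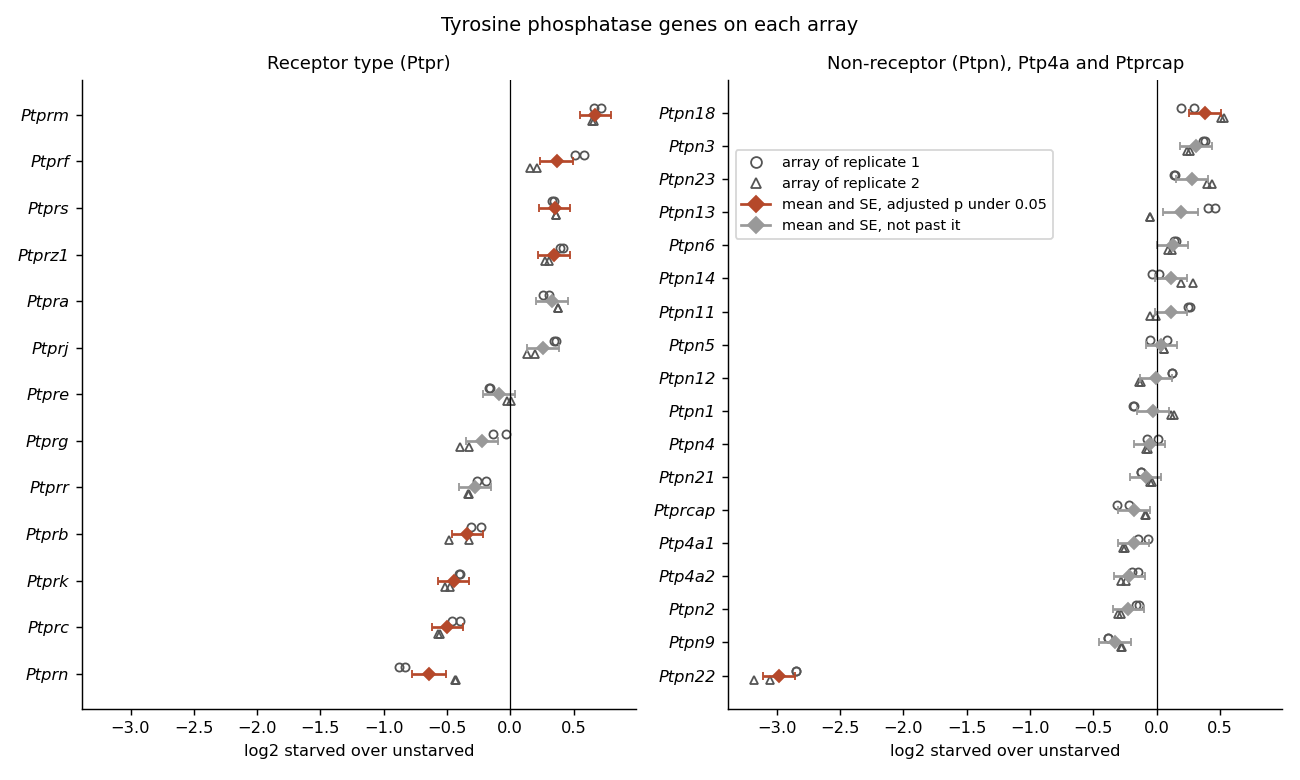
Log2 ratio of starved over unstarved cells for the 31 tested members, with receptor-type genes on the left and non-receptor, PRL and Ptprcap genes on the right. Open circles are arrays of replicate 1, open triangles arrays of replicate 2, and diamonds the mean with its SE (n = 2), coloured where the adjusted p is under 0.05; Ptpn22 lies at -2.99, far from the other members, which lie between -0.64 and 0.67.

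Among the 13 tested receptor types 4 rose, 4 fell and 5 did not pass, against 1 that rose, 1 that fell and 13 that did not pass among the 15 tested non-receptor types. The share that passed was 61.5% of the receptor types, 13.3% of the non-receptor types and 31.4% of all genes. The median ratio was -0.09 for the receptor types, 0.04 for the non-receptor types and 0.01 for all genes. The median size of the ratio, regardless of sign, was 0.35 for the receptor types, 0.13 for the non-receptor types and 0.22 for all genes. Every one of the 13 receptor types had the same sign in both replicates, as did 10 of the 15 non-receptor types and 12031 of the 16068 genes. That Ptprb and Ptprc entered through unstarved cells, where they are brighter, favours a lower value in starved cells. Without them 11 receptor types remained, 4 higher and 2 lower, with a median of 0.26. No test of the difference between the 2 classes was made, and with median centring of the arrays in place of loess the counts were 0 higher and 0 lower among the receptor types and 0 higher and 1 lower among the non-receptor types. When each gene's probes were averaged, 3 of the receptor types rose and 4 fell, against 2 that rose and 3 that fell among the non-receptor types. The share that passed was then 53.8% of the receptor types, 33.3% of the non-receptor types and 30.5% of all genes, so the non-receptor share was near the background.

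That setting bears on 9 of the 10 genes that passed. With median centring 249 of the 16068 genes passed, the median of all genes was -0.08, and of the 10 genes only Ptpn22 kept its call. Ptprf (-0.02), Ptprs (-0.04) and Ptprz1 (-0.14) changed sign there. Ptprm (0.66), Ptprn (-0.64), Ptprc (-0.50) and Ptprb (-0.33) kept nearly the same ratio, Ptpn18 had 0.22 and Ptprk -0.75, so these lost their calls with no change of direction. When the 4 arrays were averaged in other pairs, which puts both dye orientations in each average, 14296 or 14102 of the 16068 genes passed. Passing with those pairings is therefore not particular to any member.

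**Figure D2:**
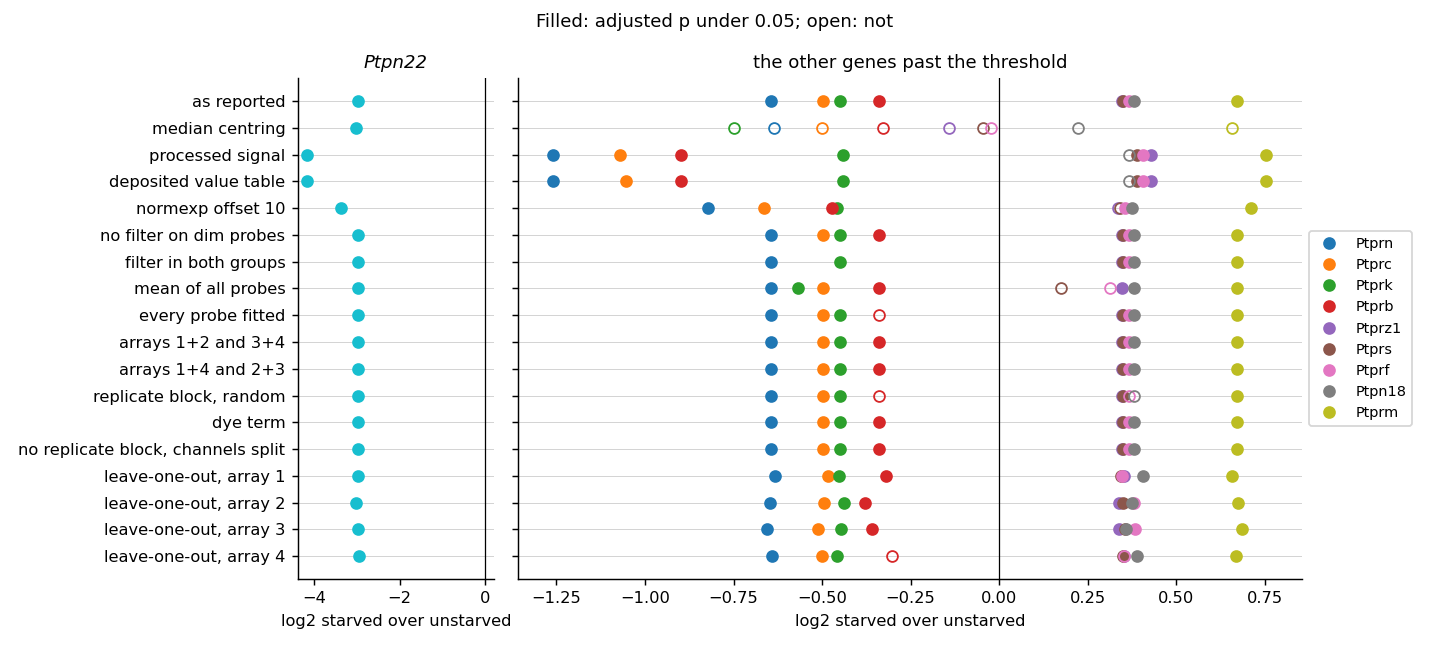
Log2 ratio of starved over unstarved cells for the 10 genes that passed, with Ptpn22 in a panel of its own, under the reported processing (top) and each alternative that has a test. Filled points have an adjusted p under 0.05 and open points do not; median centring opens every point but that of Ptpn22, and with the processed signals Ptpn22 (-4.18), Ptprn (-1.26), Ptprc (-1.07) and Ptprb (-0.90) lie farther from 0 than as reported.

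Ptpn22 fell 7.92-fold and ranked 6th from the lowest of all genes. It encodes the PEST-domain phosphatase known in mouse as PEP and in human as LYP, which in lymphocytes works with the kinase Csk to restrain Src-family kinases. Its only probe matches chromosome 3 from 104041230 to 104041289 on the plus strand of build mm8 and starts with the bases below, shown because the largest change of the family rests on this single probe.

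Ptpn22 probe, first 30 of 60 bases: atgtgacaaacttccagcaaacttgtattt

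Ptpn22 had levels of 147 and 154 on arrays 1 and 3 and 181 and 172 on arrays 2 and 4 in starved cells, against 1063, 1107, 1503 and 1567 in unstarved cells. The groups lie far apart, and the probe was well above background on 4 of 4 arrays in starved cells too. The log2 ratio was -2.85 and -2.85 on the arrays of replicate 1 and -3.06 and -3.18 on those of replicate 2, with a mean of -2.99 ± 0.13 (SE, n = 2, limma adjusted p = 9.83e-11). It passed under 17 of 17 alternatives, between -4.18 with Agilent's processed signals, which carry no offset, and -2.95 without array 4. Csk, its partner kinase, had -0.27 ± 0.13 and did not pass (limma adjusted p = 0.125). Pstpip1, an adaptor that binds PEST phosphatases, fell (-0.49, limma adjusted p = 0.00558), while Pstpip2, from the same list of partners, rose (0.38, limma adjusted p = 0.0381). These partners were picked after their values were seen.

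The other PEST-group phosphatases did not move with Ptpn22. Ptpn18, whose human form dephosphorylates the receptor ERBB2, had levels of 12867, 13455, 15491 and 15936 in starved cells, against 11244, 10992, 10704 and 11204 in unstarved cells. All 4 starved samples were above all 4 unstarved ones, by more in replicate 2. It rose by a log2 ratio of 0.38 ± 0.13 (0.24 in replicate 1 and 0.52 in replicate 2, limma adjusted p = 0.0311), a call lost with the processed signals (0.0676), with the deposited value table (0.0645) and with replicate as a random block (0.0560). Ptpn12, or PTP-PEST, a phosphatase of the focal adhesion protein p130Cas, had 0.12 in replicate 1 and -0.13 in replicate 2 and did not pass (limma adjusted p = 0.982).

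**Figure D3:**
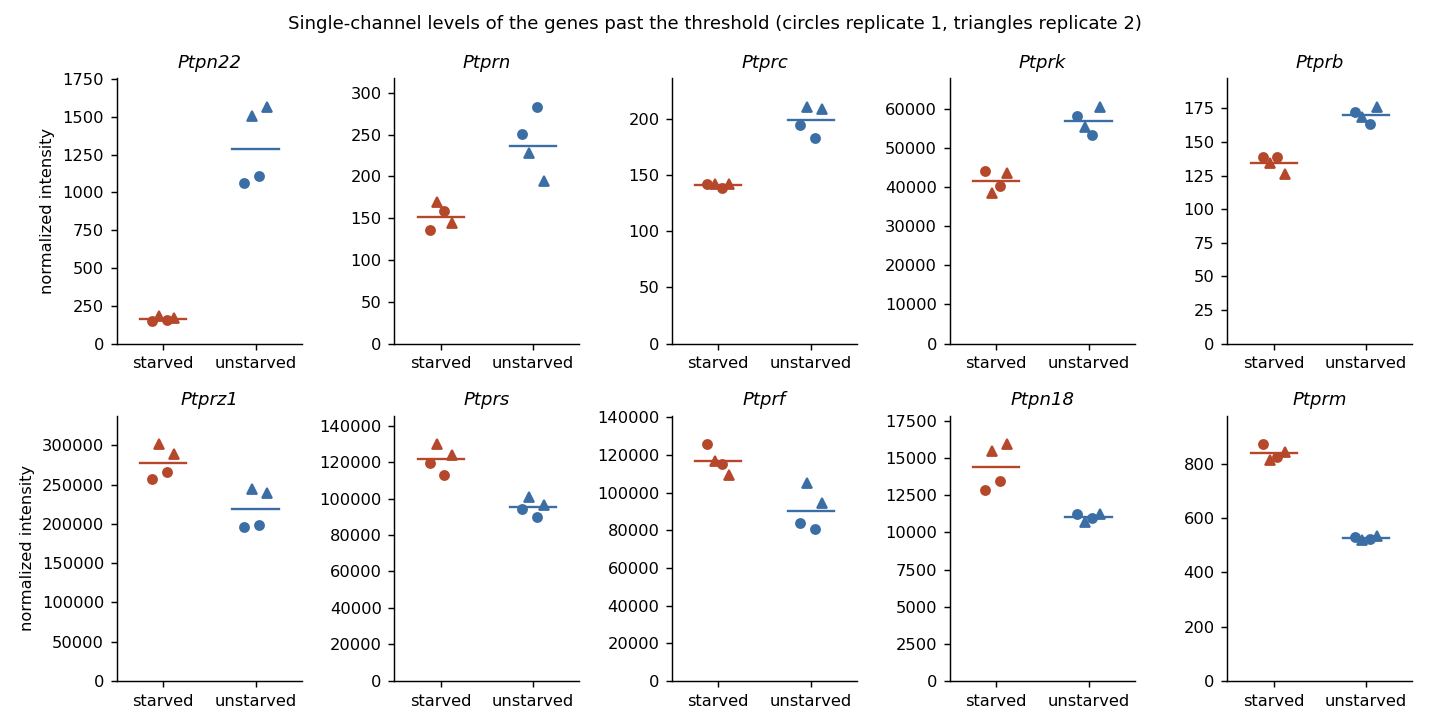
Single-channel normalized intensity of the 10 genes that passed, with the 4 starved samples left and the 4 unstarved samples right in each panel; circles are replicate 1, triangles replicate 2, lines the mean of the log values, and every axis starts at 0. Starved and unstarved samples do not overlap for any of the 10 genes, and as a ratio the gap is widest for Ptpn22, at 147 to 181 in starved cells against 1063 to 1567 in unstarved cells.

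The MAM-domain receptor phosphatases bind copies of themselves on neighbouring cells. Of the 4 on the array, Ptprm rose, Ptprk fell, and Ptprt and Ptpru were never above background. The 2 that were measured therefore went opposite ways in the same samples, and the probes that report them start as follows.

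Ptprm probe, first 30 of 60 bases: atgctgtcaagacattgaggaacaacaaac
Ptprk probe, first 30 of 60 bases: agtatcgtttttgctatgatgtggcgttag

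Ptprm, which associates with cadherin complexes, had levels of 872, 826, 814 and 845 in starved cells, against 531, 522, 519 and 535 in unstarved cells. The groups do not overlap, and the 4 arrays gave nearly the same ratio, from 0.65 to 0.71. The mean was 0.67 ± 0.12 (n = 2, 1.59-fold, limma adjusted p = 5.35e-04). Its probe aligns to chromosome 17 from 66572617 to 66582995 on the minus strand of build mm8, a span longer than the 60-base probe. A second Ptprm probe was never above background.

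Ptprk, which in human keratinocytes acts on the receptor for epidermal growth factor, had levels of 44174, 40320.3, 38566 and 43447 in starved cells, against 58138, 53373, 55211 and 60444 in unstarved cells. All 4 starved samples lay below all 4 unstarved ones. The mean ratio was -0.45 ± 0.12 (-0.40 in replicate 1 and -0.50 in replicate 2, limma adjusted p = 0.0107). Only Ptprk, Ptp4a1 and Ptpn14 had 4 tested probes, and of these genes Ptprk alone had all 4 pass on their own. The 3 further tested Ptprk probes had -0.54, -0.58 and -0.70. The representing probe matches chromosome 10 from 28285222 to 28285281, and the one at -0.58 matches 27953694 to 27953753, upstream on the same plus strand (build mm8), so the lower signal was read at positions far apart. One more Ptprk probe was never above background.

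The LAR group holds Ptprf, Ptprs and Ptprd, phosphatases of cell-matrix and cell-cell contacts that bind liprin scaffolds inside the cell. Ptprf had levels of 125687, 115055, 116945 and 109232 in starved cells, against 83754, 80809.6, 104894 and 94260.1 in unstarved cells. All starved samples were above all unstarved ones, with the wider gap in replicate 1 (0.55, against 0.18 in replicate 2). It rose by 0.37 ± 0.13 (limma adjusted p = 0.0430), and lost its call without array 4 (0.0556), with the mean of its probes (0.0508) and with replicate as a random block (0.0708). Its further probes had 0.26 and 0.32 and did not pass over probes, and the replicates of the first of these disagree in sign, at -0.15 in replicate 1 and 0.67 in replicate 2.

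Ptprs, a receptor for heparan and chondroitin sulphate proteoglycans, had levels of 119713, 112677, 129806 and 124142 in starved cells, against 94134, 89913, 100920 and 96457 in unstarved cells. The groups do not overlap and the arrays agree within 0.33 to 0.36 on the log2 scale. It rose by 0.35 ± 0.12 (limma adjusted p = 0.0396), but its second probe, also well above background throughout, had -0.00. With the mean of both probes it had 0.17 and did not pass (0.268), nor did it with an offset of 10 (0.0512). Ptprd did not enter the test, with its best probe above background on 3 of 4 arrays in starved cells and 2 of 4 in unstarved cells.

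Ptprz1 and Ptprg carry a carbonic anhydrase-like domain that binds contactins. Ptprz1, which is also a receptor for pleiotrophin, had levels of 256939, 266110, 301609 and 289030 in starved cells, against 195925, 199088, 244525 and 239171 in unstarved cells. The groups do not overlap, and the ratio was 0.35 ± 0.12 (limma adjusted p = 0.0428). It lost its call with an offset of 10 (0.0557) and with the channels split (0.0520). This reading rests on 1 of 4 probes, which lies on chromosome 6 from 22951570 to 22951629 (plus strand, build mm8). The other 3 probes were never above background, although one of them starts only 322 bases downstream, and whether the bright probe reports Ptprz1 transcript was not tested. Its first bases are given so that it can be matched elsewhere.

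Ptprz1 probe, first 30 of 60 bases: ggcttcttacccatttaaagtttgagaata

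Ptprg had -0.22 and did not pass (limma adjusted p = 0.208), with -0.08 in replicate 1 and -0.36 in replicate 2.

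Ptprn, or IA-2, is a catalytically inactive member that sits in the membrane of secretory granules in neuroendocrine cells. Its single probe lies on chromosome 1 from 75134959 to 75135018 on the minus strand of build mm8.

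Ptprn probe, first 30 of 60 bases: gagcttctaccttaagaacgtgcagaccca

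Ptprn had levels of 136, 159, 169 and 144 in starved cells, against 251, 283, 227 and 194 in unstarved cells. The groups do not overlap, though the gap is smaller in replicate 2, at -0.43, than in replicate 1, at -0.86. Ptprn fell by 0.64 ± 0.13 on the log2 scale (limma adjusted p = 0.00150). With the processed signals the value was -1.26, so its size depends on how a dim probe is corrected. Its relative Ptprn2 was never above background, and neither were Scg2, Syp, Snap25 and Syt1 among 12 neuronal and neuroendocrine markers. Of the 3 tested markers, Eno2 rose (1.24) and Tubb3 fell (-0.37) beside Ptprn. The summed level of the list was 4611 to 5195 in starved cells and 3937 to 4410 in unstarved cells, and its part in the result was not tested.

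Ptprc, or CD45, is the defining phosphatase of leukocytes. It was read by a probe spotted 10 times on each array, while its other 3 probes were never above background. Levels were 142, 139, 142 and 142 in starved cells, against 195, 183, 211 and 209 in unstarved cells. The starved values sit together at the low end, and the probe was well above background on only 2 of 4 arrays in starved cells. The ratio was -0.50 ± 0.12 (limma adjusted p = 0.00566), and -1.07 with the processed signals. The probe lies on chromosome 1 from 139879923 to 139879982, on the minus strand.

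Ptprc probe, first 30 of 60 bases: ttatgggaaatgtaaaattgactatggcca

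Of 22 leukocyte markers, 9 were never above background, among them Laptm5, Cd53, Vav1 and Itgam. Of the 12 tested, Aif1, Csf1r, Cd14 and Cd79b rose (0.64 to 1.49) and 1, Ptprc itself, fell. The summed level of the markers was 18587 to 21039 in starved cells and 10511 to 10868 in unstarved cells, though 8 of the 12 tested markers had a ratio below 0 and the list's median was -0.10. The part of these markers in the Ptprc result was not tested. Ptprcap, the CD45-associated protein, had -0.18 and did not pass (limma adjusted p = 0.302).

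Ptprb, the endothelial phosphatase VE-PTP, belongs with Ptprj to the receptors built of fibronectin repeats. Ptprb had levels of 139, 139, 134 and 126 in starved cells, against 173, 163, 169 and 176 in unstarved cells. The groups do not overlap, but the probe was above background on only 1 of 4 arrays in starved cells, and its other Ptprb-named probes never were. The ratio was -0.34 ± 0.12 (limma adjusted p = 0.0470). The call was lost without array 4 (0.0788), with every probe fitted (0.0539) and with replicate as a random block (0.161), and the value was -0.90 with the processed signals. Of 15 endothelial markers, 7 were never above background, Pecam1, Cdh5, Kdr, Tie1 and Vwf among them, and 3 of the 6 tested fell, Flt1 (-1.02), Eng (-0.53) and Ptprb. Their summed level was 19882 to 21171 in starved cells and 21072 to 22390 in unstarved cells.

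Ptprj, or DEP-1, a phosphatase of growth factor receptors and junction proteins, did not pass (0.26 ± 0.13, 0.36 in replicate 1 and 0.16 in replicate 2, limma adjusted p = 0.131). Its levels were 23313, 22717, 21537 and 23640.1 in starved cells and 18135, 17853, 19690.2 and 20609.9 in unstarved cells, which do not overlap. A second Ptprj probe had 0.00. Ptpra, which activates Src by removing its inhibitory phosphate, missed the threshold at 0.33 ± 0.12 (limma adjusted p = 0.0522). It passed under some alternatives, among them a random block for replicate (0.0287), the mean of all probes (0.0441) and no filter on dim probes (0.0495). Its relative Ptpre had -0.09 (0.638). Ptprr, a phosphatase that binds MAP kinases, had -0.28 (limma adjusted p = 0.0998) and -0.19 with its second probe. Ptprh, Ptpro, Ptprq and Ptprv, the remaining fibronectin-repeat members, were never above background in either group.

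Among the non-receptor types, the best known regulators of growth factor signalling did not pass. Ptpn1, or PTP1B, which dephosphorylates the insulin receptor, had levels of 39823, 38759, 43736 and 45093 in starved cells and 45348, 43921, 40480.1 and 41023 in unstarved cells. The groups overlap, and the ratio was -0.18 in replicate 1 and 0.12 in replicate 2, for a mean of -0.03 ± 0.13 (limma adjusted p = 0.885, 95% interval -0.30 to 0.24). Its second probe had 0.01.

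Ptpn11, or SHP2, an SH2-domain phosphatase needed for signalling from growth factor receptors to ERK, had levels of 126817, 122211, 120380 and 118223 in starved cells and 105809, 102976, 120876 and 122275 in unstarved cells. The groups overlap, since replicate 1 differed (0.25) and replicate 2 did not follow (-0.03), and the mean was 0.11 ± 0.13 (limma adjusted p = 0.544). Its 3 tested probes gave different answers: the others had -0.09 and 0.54, and the last of these passed when every probe was fitted (adjusted p = 0.00466). Ptpn6, or SHP1, had 0.13 (limma adjusted p = 0.479).

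Ptpn2, or TC-PTP, which acts on JAK and STAT proteins, had levels of 31693, 32037, 33040 and 28571 in starved cells and 35575, 35271, 40257 and 35338 in unstarved cells. These do not overlap, yet the mean of -0.22 ± 0.12 did not pass (limma adjusted p = 0.190). A second probe had -0.65 and passed on its own (adjusted p = 0.00692 over probes), though it had -0.20 in replicate 1 and -1.10 in replicate 2, and the mean of both probes, -0.44, passed as well (0.0367).

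The FERM-domain phosphatases Ptpn3, Ptpn4, Ptpn13, Ptpn14 and Ptpn21 link the membrane to the cytoskeleton, and none passed (0 of 5, against 1 at an unadjusted p under 0.05). Ptpn13, a large PDZ-domain phosphatase, had levels of 128548, 127333, 117851 and 119901 in starved cells and 93416, 96218, 122108 and 124590.0 in unstarved cells. The groups overlap because replicate 1 (0.43) and replicate 2 (-0.05) disagree, and the mean was 0.19 ± 0.14 (limma adjusted p = 0.323). A second tested Ptpn13 probe had the reverse order, with -0.02 in replicate 1, 0.36 in replicate 2 and a mean of 0.17. Ptpn3 had 0.31 (limma adjusted p = 0.0666), with levels of 231 to 239 in starved cells and 183 to 198 in unstarved cells. It passed under a random block for replicate (0.0261), with an offset of 10 (0.39, 0.0272), with the processed signals (0.52, 0.0119) and with the deposited value table (0.52, 0.0108). The size of the Ptpn3 ratio thus depends on how a dim probe is corrected. Averaging its probes gave a pass too (0.0440). It did not pass with median centring, with every probe fitted or with any array left out. The second Ptpn3 probe had 0.35 and passed over probes (0.0475). Ptpn14, whose human form binds the transcriptional coactivator YAP, had 0.12, with 4 probes spread between -0.37 and 0.25. Its probe at -0.37, which does not stand for the gene, passed over probes (0.0381). Ptpn4 had -0.05 and Ptpn21 -0.09.

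Of the remaining non-receptor types, Ptpn9, which carries a lipid-binding Sec14 domain, had -0.33 ± 0.12 and just missed the threshold (limma adjusted p = 0.0527). It passed under some alternatives, among them a random block for replicate (0.0182), the mean of all probes (0.0447) and an offset of 10 (0.0477). Ptpn23, or HD-PTP, which takes part in endosomal sorting, had 0.28 (0.109), and Ptpn5, the striatal phosphatase STEP, had 0.04 (0.857). Ptpn7 was above background on 3 of 4 arrays in starved cells and on 1 of 4 in unstarved cells and was not tested, and Ptpn20 was never above background. The PRL phosphatases Ptp4a1 and Ptp4a2, small membrane-anchored enzymes that bind magnesium transporters, had -0.18 and -0.22 and did not pass (limma adjusted p = 0.293 and 0.205). One of the 4 Ptp4a1 probes, at -0.39, passed over probes (0.0267).

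Detection was also counted by class. Of the 21 receptor types 7 were never above background with any probe, as was 1 of the 17 non-receptor types. The test took in 13 of the 21 and 15 of the 17, against 16068 of 27573 genes when dim probes are kept. The receptor share is thus near that of all genes, and the difference between the classes was not tested. Over probes, 29.5% of 24586 passed, against 17 of the 57 tested member probes, 7 higher and 10 lower. Of 17 members with more than 1 tested probe, 11 had all their probes on one side of 0. The exceptions were Ptpn1, Ptpn6, Ptpn11, Ptpn14, Ptpre and Ptprs.

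**Figure D4:**
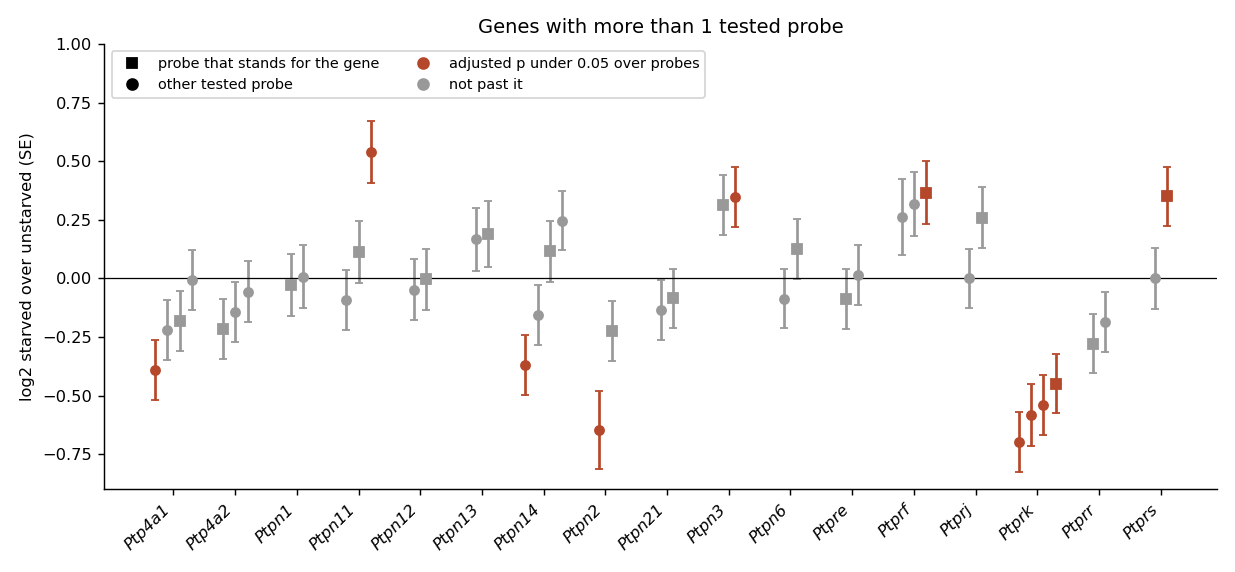
Log2 ratio of starved over unstarved cells with its SE (n = 2) for every tested probe of the 17 members with more than 1 tested probe; squares mark the brightest probe, which stands for the gene, and colour marks an adjusted p under 0.05 over all probes. The 4 Ptprk probes lie together between -0.70 and -0.45, while the 3 Ptpn11 probes run from -0.09 to 0.54.

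Genes around the phosphatases were read from 4 lists. Of 17 tested ligands, adhesion partners and scaffolds of the receptor types, 3 rose, 3 fell and 11 did not pass, with a median of 0.03. Ppfibp2, a liprin (0.96), Cdh1, or E-cadherin (0.67), and Ctnnb1, or beta-catenin (0.56), rose, and Gpc4, a heparan sulphate proteoglycan (-0.72), fell. Of 37 tested partners and substrates of the non-receptor types, 11 rose, 3 fell and 23 did not pass, with a median of 0.19. Tns1, or tensin (1.33), Insr, the insulin receptor (0.87), and Pxn, or paxillin (0.86), rose, and Cav1, or caveolin-1 (-1.21), fell.

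Of 21 tested non-receptor tyrosine kinases and regulators of Csk, 4 rose, 4 fell and 13 did not pass, with a median of -0.02. Frk (0.80) and Tnk1 (0.67) rose, and Src, the founding member of its family, fell (-0.59 ± 0.13). Of 25 other phosphatases that act on phosphotyrosine, or are related to such enzymes, 2 rose, 8 fell and 15 did not pass, with a median of -0.17. Those that fell most were Eya4, a transcriptional cofactor with phosphatase activity (-1.49), Dusp14 (-1.04) and Dusp3 (-0.95), both dual-specificity phosphatases, and Ubash3b (-1.03). The share that passed was 35.3% for the first list, 37.8% for the second, 38.1% for the third and 40% for the fourth, against 31.4% of all genes.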

How the data were processed

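The authors deposited scanner intensity per spot, not background-subtracted, made with Agilent Feature Extraction 9.5.3.1 (per the submitters' processing notes); its mean and local background signals were used. Both files of an array were identical for 4 of 4 arrays, and each sample was read from the channel of its labelled dye. The series text speaks of a dye swap within each pair, which the labels contradict; the labels were followed. The deposited value table (linear intensity) and processed intensity served as alternatives, and how the authors scaled that table is not stated in the sources.

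Background was corrected by normexp (offset 50) and each array normalized by loess, in limma 3.58.1 under R 4.3.3. Control spots (1639 of 45018 per array) and 583 flagged spots over all arrays were left out, and spots of a probe were averaged. Ratios of the 2 arrays per replicate were averaged; the resulting 2 values per gene were fitted with lmFit and eBayes, two-sided, with Benjamini-Hochberg adjustment and a threshold of 0.05. With 1 residual and 15.1 prior degrees of freedom, a gene's error comes mostly from the pooled spread. Tested on simulated data, the fit found nearly all 2-fold changes, but in many draws more of its calls were false than the threshold allows, and the prior degrees of freedom were poorly recovered. Every member that passed, other than Ptpn22, changed less than 2-fold, so that recovery does not cover them, and recovery of smaller changes is not given here. The simulated data also had a far smaller share of changed genes than passed here, and no dye or replicate effect. Single-channel levels are those after loess and Aquantile. The number of arrays limits the precision. The labels place the cells on separate dishes of 1 line, but the 2 replicates also carry opposite dye orientations. The spread behind the p-values is therefore one between cultures that cannot be told apart from a dye effect.

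Same-numbered samples carry opposite dyes, so their correlation (-0.297) cannot test the pairing. Members and lists were chosen with earlier results of these data known. The text names every member, gives each sample's value for those that passed and for Ptpn1, Ptpn2, Ptpn11, Ptpn13, Ptprf, Ptprj and Ptprk, and names the 4 called genes with the largest change of each further list, except 1 that is not reported here. Positions of probes are the array design's own (mm8); no annotation of that build was used here, so exon or UTR placement is not given.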

Additional observations from a re-analysis of the deposited data

How the results depend on the processing

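With median centring in place of loess 0 members rose and 1 fell, the receptor-type median became -0.20 and the non-receptor median -0.13, and Ptprf (-0.022), Ptprs (-0.044) and Ptprz1 (-0.14) changed sign; the cause was not tested. Requiring signal in both groups removed Ptprb and Ptprc from the test, which left 3 members lower and a receptor-type median of 0.26. With the mean of all probes 5 members rose and 7 fell, and the non-receptor median was -0.011. Averaging arrays 1+2 and 3+4 gave 13 members higher and 15 lower, arrays 1+4 and 2+3 gave 13 and 15, and a dye term 13 and 16, settings under which most genes passed. With a random replicate block 5 members rose and 5 fell, with Ptpn18, Ptprf and Ptprb lost and Ptpn3, Ptpra and Ptpn9 gained, and without the replicate block, with the channels split, 6 rose and 6 fell. The processed signals, the deposited value table, an offset of 10, no filter and every probe fitted gave 4 to 6 members higher and 4 to 6 lower. Leaving out 1 array gave 4 to 6 higher and 4 to 6 lower. Leaving out an array or a replicate, the receptor-type median ran from -0.096 to -0.0089 and the non-receptor median from -0.027 to 0.069. Without one replicate no test was possible, since no residual degree of freedom is left. Signal over background limits Ptprb and Ptprc in starved cells.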

Other observations

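Some probes of phosphatase genes lie outside the name rule. Ptp4a3, the third PRL phosphatase, is on the array under the name pPtp4a3. Its brightest probe fell by 0.41 on the log2 scale (limma adjusted p = 0.0170), while its second probe had -0.00. A probe under the name 5430405N12Rik, matched to Ptprg, had 0.19 and did not pass over probes (adjusted p = 0.294), against -0.22 for the probe named Ptprg. A probe named C130094E24, matched to Ptprb, was never above background. These probes were picked after their values were seen.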
